A study of Mus musculus with 6 samples.

Results

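Microglia of mice labelled non-recovered in a chronic learned helplessness paradigm were set against microglia of non-shocked mice that carry the same deposited batch number. Members were the barcodes that the authors' deposited annotation calls microglia in the non-recovered library, all of it in batch 3, and in the batch 3 part of the non-shocked library. A barcode with 20 or more UMIs (unique molecular identifiers, each standing for a captured transcript) over the neutrophil genes S100a8, S100a9, Ngp, Camp and Retnlg was left out. This removed 1 non-recovered barcode, which held 6136 of its 17107 UMIs in those genes, and no non-shocked barcode. The members were therefore 98 non-recovered and 429 non-shocked microglia, 527 of the 3005 cells of the series and of its 2721 annotated microglia before that rule.

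In learned helplessness, an animal exposed to shocks that it cannot escape later fails to escape when escape is possible. Non-recovered mice were given 180 footshocks that could not be escaped, at a current of 0.3 mA, were tested for escape on the following day in 30 trials of 24 s, and were then retested weekly for 3 weeks. The deposited response column calls them susceptible. Non-shocked mice, the control, received no footshocks. Both groups have the strain entry BC57BL/6 and no listed drug or transgene, and the age, the sex and the number of animals pooled into a library are not stated in the labels. Hippocampi without meninges and choroid plexus were taken immediately after the behavioural session, enriched on Percoll, sorted for live CD45-positive cells and run on a 10x Genomics single-cell 5′ kit. Each side is 1 library, so there is no spread between replicates and no test. Every interval below covers counting error only, and effects of shock history, of a recent session, of animal and of library cannot be told apart.

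Microglia are the resident macrophages of the brain. They carry the glucocorticoid receptor, which on binding corticosterone, the stress hormone of rodents, moves into the nucleus and switches on genes that damp inflammation and adjust metabolism. The same cells respond to injury or to dissociation with immediate early genes, heat shock chaperones and chemokines, and present antigen on MHC molecules when activated.

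The non-recovered side held 286827 UMIs, with a median of 2491.5 per cell, and the non-shocked side 1698927 UMIs, with a median of 3906 per cell. A single UMI is thus 3.49 CPM (UMI counts scaled to a common library total) in the summed non-recovered microglia and 0.589 CPM in the summed non-shocked microglia. The libraries shared 1 barcode sequence, which belongs to a kept microglial cell. All 10 microglial markers were detected on both sides and summed to 44431 CPM in non-recovered and 51030 CPM in non-shocked microglia. Neutrophil markers summed to 132 CPM (38 UMIs) in non-recovered and 8.24 CPM (14 UMIs) in non-shocked microglia, with Retnlg at 0 in non-recovered microglia and Mpo at 0 in both. T cell markers reached 13.9 CPM in non-recovered and 2.94 CPM in non-shocked microglia, with Trac, Trbc1 and Trbc2 at 0 in both. The defining B cell genes Cd79a and Ms4a1 were at 0 in non-recovered microglia, neuronal markers were at 0 there, and red cell markers were at 0 there against 58 UMIs in 1 non-shocked barcode. Monocyte markers summed to 34.9 CPM (10 UMIs) in non-recovered and 7.65 CPM (13 UMIs) in non-shocked microglia, with Vcan at 0 in both, and NK cell markers to 13.9 CPM in non-recovered and 1.18 CPM in non-shocked microglia, with Ncr1 and Klrb1c at 0 in both. Their part in the results below was not tested.

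Cells on both sides fell into a ribosome-rich and a ribosome-poor set, and the second was larger among non-recovered microglia. A cell was called ribosome-poor when under 2.5% of its UMIs came from cytosolic ribosomal protein genes, a limit that lies in the gap between the sets. Of the non-recovered microglia, 53 of 98 were ribosome-poor (54.1%, 95% exact interval 43.7 to 64.2), against 147 of 429 non-shocked microglia (34.3%, 29.8 to 39.0). They held 34.1% of the summed UMIs in non-recovered and 21.0% in non-shocked microglia. Such cells were shallower, with a median of 1878 UMIs against 4363 in ribosome-rich cells of the non-recovered side, and of 2246 against 4800.5 in the non-shocked side. In microglia of the other libraries the ribosome-poor share was 15.9% in chronic non-helpless, 9.41% in chronic recovered, 15.9% in acute helpless, 9.31% in acute non-helpless and 65.9% in batch 2 non-shocked cells. The non-shocked parts of batches 2 and 3 thus differed from each other by more than non-recovered and batch 3 non-shocked microglia did.

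The deposited clusters followed this split. Non-recovered microglia lay in cluster 1 (41 cells, 41.8%) and cluster 6 (57 cells, 58.2%), and 51 of the 57 were ribosome-poor. Non-shocked batch 3 microglia lay in cluster 1 (244 cells, 56.9%), cluster 3 (138 cells, 32.2%, of which 131 ribosome-poor), cluster 4 (38 cells, 8.86%, median 969 UMIs) and cluster 6 (9 cells, 2.10%). No non-recovered microglia were in clusters 3 or 4, which allows a share of up to 3.06% in each (3 cells of 98). Cluster 6 also held 122 of the 123 microglia of non-shocked batch 2, so that ribosome-poor cells of different libraries sit in different deposited clusters. Each gene below was therefore also compared within ribosome-rich cells (45 non-recovered and 282 non-shocked), within ribosome-poor cells (53 and 147) and within cluster 1 (41 and 244).

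**Figure D1:**
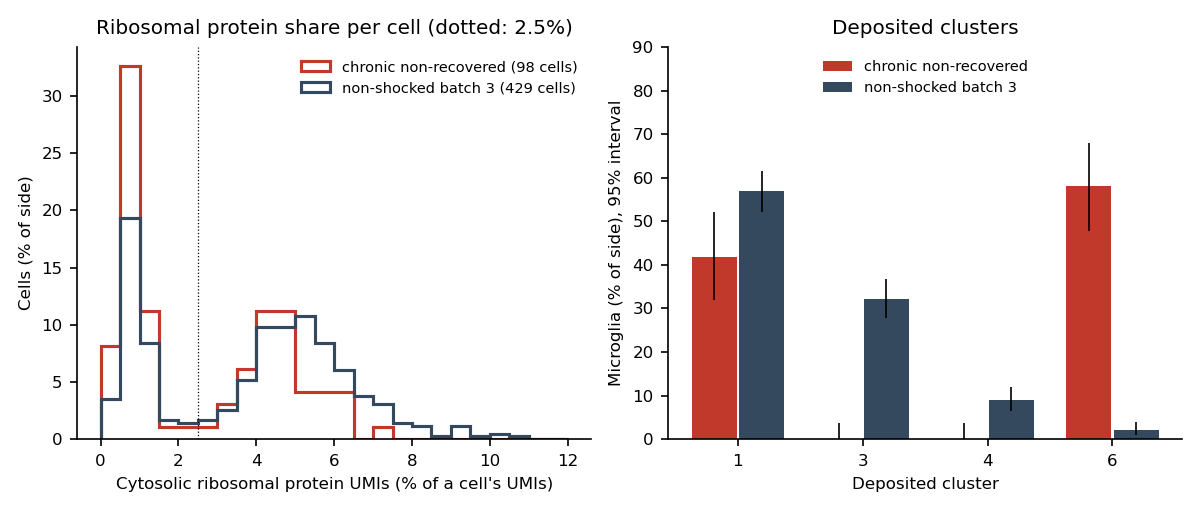
Left, the share of each microglial cell's UMIs in cytosolic ribosomal protein genes (x axis, percent) against the percent of cells on each side (y axis), with the 2.5% limit dotted; right, the percent of each side's microglia in deposited clusters 1, 3, 4 and 6 with exact 95% intervals. Both sides have a peak near 1% and another near 5%, and the low peak holds 54.1% of non-recovered and 34.3% of non-shocked microglia.

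Across all genes, the summed profiles were close to each other, and more genes were higher than lower in non-recovered microglia. A gene counted as measured when the mean CPM of the 2 sides was at least 100, and as higher or lower when the sides differed by at least 1.5-fold. Of 1853 measured genes, 173 (9.34%) were higher and 80 (4.32%) were lower in non-recovered microglia. The median log2 ratio (non-recovered over non-shocked) was 0.038 and the median fold in either direction was 1.20. Within ribosome-rich cells 140 of 1814 genes (7.72%) were higher and 55 (3.03%) lower, within cluster 1 these were 153 (8.42%) and 62 (3.41%) of 1818, and within the shallower ribosome-poor cells 398 (19.8%) and 228 (11.4%) of 2008. Leaving out, for each gene, the barcode with most of its UMIs on each side gave 137 higher and 125 lower genes. Abca1 (1.52-fold), just inside, and Safb2 (1.49-fold), just outside, were among the genes nearest to the limit on the higher side.

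The genes that differed also differed between the cell states. In the other chronic libraries, non-helpless and recovered, 114 ribosome-poor and 756 ribosome-rich microglia gave a ratio for each gene that does not use the compared libraries. The median log2 ratio of poor over rich cells there was 0.94 for the 173 higher genes and −0.90 for the 80 lower genes, against 0.038 for all measured genes. Of the higher genes, 83.2% lay above 0 on that scale, against 11.2% of the lower genes and 51.1% of all measured genes. The higher genes were also longer, with a median genomic span of 57.4 kb, against 8.75 kb for the lower genes and 23.6 kb for all. What share of the calls goes with the number of ribosome-poor cells was not tested, and the values within each cell state are given beside the genes below.

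**Figure D2:**
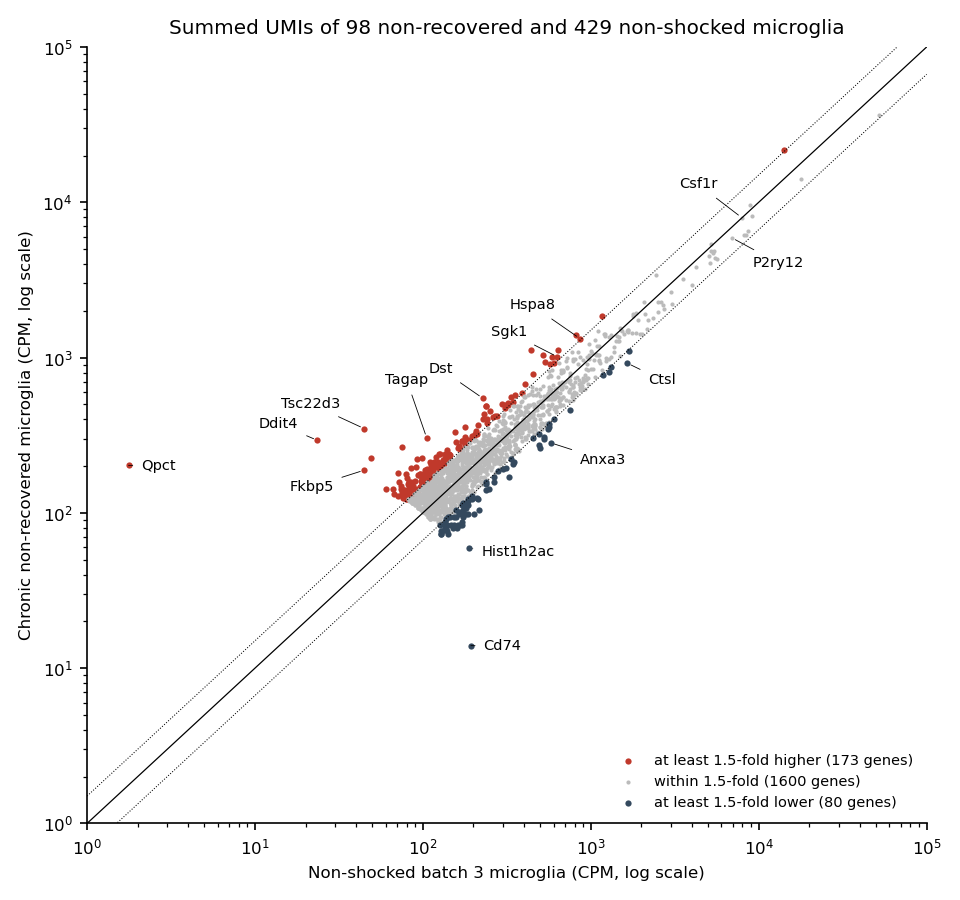
Each point is 1 of the 1853 measured genes, with its CPM in non-shocked batch 3 microglia on the x axis and in chronic non-recovered microglia on the y axis, both on log scales. The solid line marks equal levels and the dotted lines 1.5-fold, and Qpct, Ddit4, Tsc22d3 and Ccnd3 stand farthest above them while Cd74 stands farthest below.

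Genes that glucocorticoids induce were among those with the highest ratios. Ddit4, which inhibits the growth kinase complex mTORC1, had 293 CPM (84 UMIs, 234 to 363) in non-recovered microglia and 23.5 CPM (40 UMIs, 16.8 to 32.1) in non-shocked microglia, a ratio of 12.4 (8.44 to 18.6). Tsc22d3, the glucocorticoid-induced leucine zipper that restrains NF-kB and AP-1, had 349 CPM (284 to 424) in non-recovered and 44.7 CPM (35.2 to 56.0) in non-shocked microglia, 7.79-fold higher (5.73 to 10.6). Fkbp5, an Hsp90 co-chaperone that lowers the hormone affinity of the glucocorticoid receptor, had 188 CPM (141 to 246) in non-recovered and 44.7 CPM (35.2 to 56.0) in non-shocked microglia, 4.21-fold higher (2.91 to 6.04). None of these pairs of intervals overlapped, but the 3 genes are among the 12 highest ratios of these same values, so this is no separate support.

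The UMIs of these genes were spread over many cells. Ddit4 UMIs came from 39 non-recovered and 35 non-shocked cells, with no more than 8 and 2 UMIs in a cell. Both cell states showed the difference. Ddit4 was 13.6-fold higher (8.76 to 21.3) within ribosome-rich and 10.9-fold higher (4.47 to 30.4) within ribosome-poor cells, and Tsc22d3 was 7.80-fold (5.43 to 11.2) and 8.01-fold (4.23 to 15.9) higher. Fkbp5 was 3.29-fold higher (1.96 to 5.38) within ribosome-rich and 4.80-fold higher (2.66 to 8.77) within ribosome-poor cells. Within cluster 1 the ratios were 14.1 for Ddit4 and 9.20 for Tsc22d3, and Fkbp5 was past the limit there too. Ddit4 and Tsc22d3 were lower in ribosome-poor than in ribosome-rich cells of the other chronic libraries (log2 ratios of −1.07 and −0.33), whereas Fkbp5 was higher there (0.90).

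Of the 23 genes on the glucocorticoid response list, 11 were measured, 6 were higher, 1 was lower and 4 lay within 1.5-fold. Of all measured genes, 9.34% were higher and 4.32% lower. The list's median log2 ratio was 0.68, against 0.038 for all genes. Nfkbia, which encodes the NF-kB inhibitor IkBa, had 331 CPM in non-recovered and 154 CPM in non-shocked microglia, 2.15-fold higher (1.68 to 2.73). Sult1a1, a sulfotransferase, had 149.9 CPM in non-recovered and 74.2 CPM in non-shocked microglia, 2.02-fold higher (1.40 to 2.88), with ratios of 1.55 (0.953 to 2.43) within ribosome-rich and 4.32 (2.11 to 8.99) within ribosome-poor cells. Sgk1, a kinase that both glucocorticoids and mineralocorticoids induce, was the most abundant of the higher members in CPM, a scale on which levels of different genes also depend on capture. It had 1011 CPM (898 to 1134) in non-recovered and 632 CPM (595 to 671) in non-shocked microglia, 1.60-fold higher (1.40 to 1.82).

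The receptor itself and other members of the list did not follow. Nr3c1, the glucocorticoid receptor gene, had 209 CPM (159.6 to 269) in non-recovered and 200.1 CPM (179 to 223) in non-shocked microglia, a ratio of 1.05 (0.781 to 1.38). Dusp1, a phosphatase of MAP kinases, had 122 and 128 CPM and Tgfbr2, a receptor of TGF-beta, 596 and 571 CPM on the non-recovered and non-shocked sides. Mt1, a metal-binding metallothionein, was lower, with 83.7 CPM in non-recovered and 162 CPM in non-shocked microglia, 1.93-fold (1.27 to 3.07). Of the 12 members under the level limit, the clock gene Per1 had the most UMIs in non-recovered microglia. It had 25 UMIs there and 24 in non-shocked microglia (87.2 and 14.1 CPM, ratio 6.17, 3.38 to 11.3), and 22 of the 25 came from ribosome-rich cells. Over the processing alternatives its log2 ratio lay between 0.13 and 3.67. Errfi1 (12 and 77 UMIs), Cdkn1a (9 and 47) and Arrdc2 (4 and 36) had ratios of 0.923, 1.13 and 0.658, with intervals that include 1. Mt2 had 0 and 7 UMIs. Another 7 of those 12, Zbtb16, Klf9, Pdk4, Hif3a, Il1r2, Map3k6 and Cxcr4, had at most 2 UMIs on either side.

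The list median depended on which members were measured. With a level limit of 200 CPM it was 0.064 over 5 genes, since Ddit4, Tsc22d3, Fkbp5 and Sult1a1 lie below that limit. Over the same 11 genes it was 0.63 within ribosome-rich, 0.45 within ribosome-poor and 0.53 within cluster 1 cells.

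Since the kit reads transcripts from the 5′ end and these genes differed together, the 250 bases before the RefSeq starts of the 3 members with the highest ratios, and of Sgk1 (build GRCm38.p6, printed 5′ to 3′ on the gene's strand) are shown with the letters that the glucocorticoid receptor is known to bind. Sgk1 is shown because, of the measured members with windows, it alone held the palindrome described next, and it was chosen with that match known. Capitals mark a single receptor site, AGAACA or its reverse complement TGTTCT, and the palindrome of both, in which any 3 bases lie between them, which contains a single site on each strand. Ddit4 lies on the minus strand with its window at chr10:59951771-59952020, Fkbp5 on the minus strand at chr17:28486150-28486399, Tsc22d3 on the minus strand at chrX:140600523-140600772 and Sgk1 on the plus strand at chr10:21993640-21993889.
Ddit4: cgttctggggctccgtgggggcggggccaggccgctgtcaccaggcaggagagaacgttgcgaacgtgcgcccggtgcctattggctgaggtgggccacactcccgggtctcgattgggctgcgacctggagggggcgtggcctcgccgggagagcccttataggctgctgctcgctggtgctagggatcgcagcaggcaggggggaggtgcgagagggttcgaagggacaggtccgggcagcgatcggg
Fkbp5: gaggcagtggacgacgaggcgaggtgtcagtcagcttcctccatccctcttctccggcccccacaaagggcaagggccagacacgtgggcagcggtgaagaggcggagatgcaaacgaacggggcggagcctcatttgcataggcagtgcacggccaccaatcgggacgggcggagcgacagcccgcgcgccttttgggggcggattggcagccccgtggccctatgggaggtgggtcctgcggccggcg
Tsc22d3: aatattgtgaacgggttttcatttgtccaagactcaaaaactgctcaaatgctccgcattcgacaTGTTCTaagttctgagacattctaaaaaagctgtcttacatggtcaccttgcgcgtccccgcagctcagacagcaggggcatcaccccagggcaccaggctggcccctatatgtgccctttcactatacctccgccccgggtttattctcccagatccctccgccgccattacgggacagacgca
Sgk1: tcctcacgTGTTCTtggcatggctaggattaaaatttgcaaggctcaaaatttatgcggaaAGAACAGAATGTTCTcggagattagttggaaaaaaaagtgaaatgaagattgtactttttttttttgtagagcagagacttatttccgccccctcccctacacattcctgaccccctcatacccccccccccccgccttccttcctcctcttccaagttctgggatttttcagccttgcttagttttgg

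The windows of Ddit4 and Fkbp5, 1 each, held no single site. Of the 3 Tsc22d3 windows, the printed one alone held a site, which starts 185 bases before the transcript start. Of the 6 Sgk1 windows, 3 held a single site, and the printed one held 3, of which a pair forms the palindrome that starts 189 bases before the start. A single site was present in 5284 of all 32851 RefSeq windows of this length (16.1%) and the palindrome in 3 of them (0.00913%). Of the 11 measured list members, 9 had windows, and Sgk1, Sult1a1 and Tsc22d3 held a single site. The match of letters is a description of these windows and says nothing of binding in these cells.

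**Figure D3:**
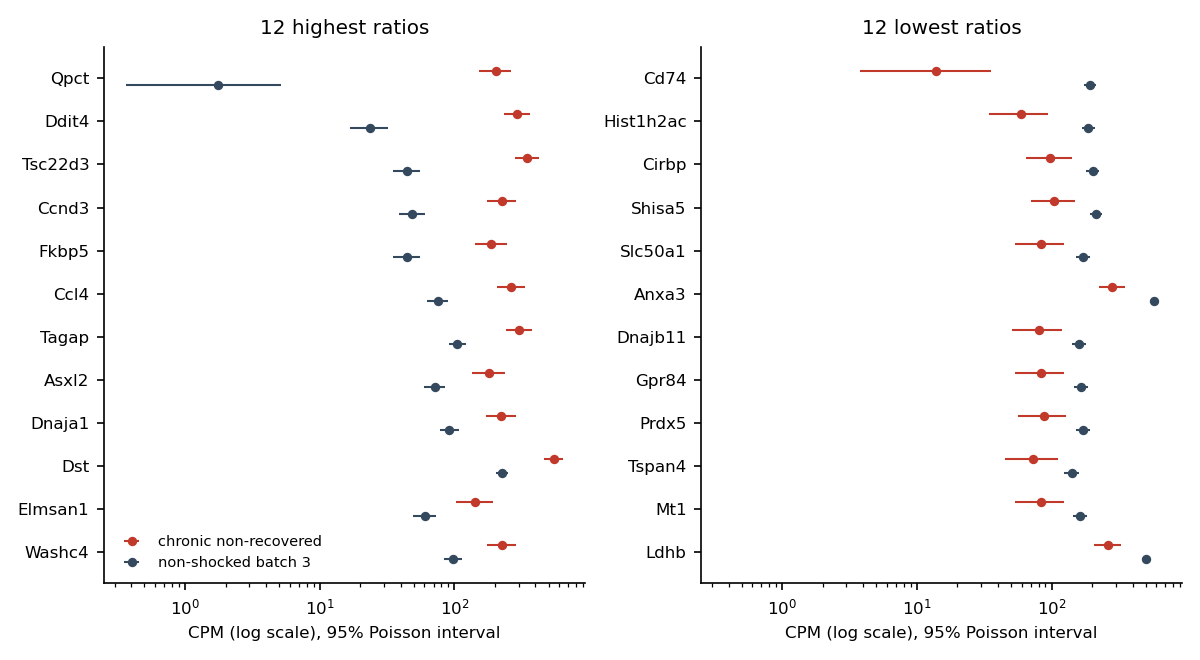
The 12 measured genes with the highest ratio (left) and the 12 with the lowest (right), each with its CPM on a log scale in chronic non-recovered (red) and non-shocked batch 3 microglia (dark blue) and 95% Poisson intervals. The genes were chosen by these same ratios, so that intervals that lie apart, as they do for all 24, are no separate support. The gap is widest for Qpct, with 202 CPM in non-recovered and 1.77 CPM in non-shocked microglia.

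Several chaperones of the cytosol were higher in non-recovered microglia. Of 20 heat shock genes, 9 were measured, 4 were higher (all genes: 9.34%), none was lower, and the median log2 ratio was 0.41. Dnaja1, an Hsp70 co-chaperone, had 223 CPM in non-recovered and 91.8 CPM in non-shocked microglia, 2.43-fold higher (1.79 to 3.27). Hsp90ab1, a chaperone that holds the glucocorticoid receptor ready for hormone, had 913 CPM in non-recovered and 571 CPM in non-shocked microglia, 1.60-fold higher (1.39 to 1.84). Hspa8, the constitutive Hsp70, had 1325 and 862 CPM on the non-recovered and non-shocked sides, 1.54-fold higher (1.37 to 1.72). All 3 held in both cell states, at 2.39, 1.70 and 1.66-fold within ribosome-rich cells, in the order just given. Within ribosome-poor cells the first was 2.91-fold and the second 1.66-fold higher, and Hspa8 was just past the limit. The ratio of Dnajb1 was also just past the limit, with an interval of 1.01 to 2.19, and 1.34 without the top cell of each side.

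The other measured chaperones of the list lay within 1.5-fold. Of the cytosolic ones, Hspa4 had a ratio of 1.02 (0.740 to 1.37) and Hsp90aa1 one of 1.33 (0.920 to 1.88). Hspa5, the main chaperone of the endoplasmic reticulum, had a ratio of 1.07, Hsp90b1 one of 0.928 and Hspe1 of mitochondria one of 1.02. Dnajb11, a co-chaperone of Hspa5, was among the 12 lowest genes, with 80.2 CPM in non-recovered and 159.5 CPM in non-shocked microglia, 1.99-fold lower (1.30 to 3.19). Under the level limit, the stress-inducible Hspa1a had 38 UMIs in 10 non-recovered cells and 41 UMIs in 15 non-shocked cells (132 and 24.1 CPM, ratio 5.49, 3.44 to 8.75). Over the processing alternatives its log2 ratio lay between 0.60 and 3.29. Hsph1 had 18 and 15 UMIs (62.8 and 8.83 CPM, ratio 7.11, 3.38 to 15.2). The ratios of Hspa9, Dnajb4, Ahsa1, Hspd1 and Bag3 were 0.955, 1.16, 1.17, 1.23 and 1.36, with intervals that include 1. Stip1 and Chordc1 had ratios of 1.59 (0.833 to 2.84) and 1.96 (1.30 to 2.88). Hspa1b had 5 and 1 UMIs and Hspb1 had 1 and 15.

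Immediate early genes, which cell dissociation is also known to induce, were not higher. Of 25 listed, 11 were measured, none was higher and 1 was lower (all measured genes: 9.34% and 4.32%). The median log2 ratio was −0.25. Junb, an AP-1 subunit, was the lower one, with 868 CPM in non-recovered and 1326 CPM in non-shocked microglia, 1.53-fold (1.34 to 1.75). Fos had 307 CPM in non-recovered and 407 CPM in non-shocked microglia, Egr1 had 373 and 529 CPM, and Jun had 1415 and 1576 CPM. Among those under the limit, Egr2 had 18 and 8 UMIs (62.8 and 4.71 CPM, ratio 13.3, 5.51 to 35.4).

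Chemokines rested on few cells. Of 22 chemokines and cytokines, 4 were measured, and Ccl4, an inflammatory chemokine, was the one that was higher (all measured genes: 9.34%). It had 265 CPM (76 UMIs) in non-recovered and 75.3 CPM (128 UMIs) in non-shocked microglia, 3.52-fold higher (2.61 to 4.71). Its UMIs came from 5 non-recovered cells, 47 of them from a single cell, and from 42 non-shocked cells. Without the top cell of each side the ratio was 1.60 (1.02 to 2.42), and within ribosome-poor cells it was 1.15 (0.547 to 2.25). Ccl3 had 24 of its 37 non-recovered UMIs in a single cell. Ccl6, Ccl9 and Tgfb1 lay within 1.5-fold, at log2 ratios of −0.56, −0.33 and −0.04. Under the limit, Ccl12 had 11 UMIs in non-recovered and 210 in non-shocked microglia (38.3 and 124 CPM), Il1a had 17 and 195 UMIs (59.3 and 115 CPM), and Tnf had 1 and 27.

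Of 18 NF-kB genes, 5 were measured, and the inhibitor gene Nfkbia alone was higher. Of 5 measured members of the NF-kB list it was the only one past 1.5-fold (all measured genes: 9.34% higher and 4.32% lower). The subunit genes Nfkb1, Rel and Rela had log2 ratios of −0.15, −0.03 and 0.20. Nfkbia is also on the glucocorticoid response list, and it was 2.32-fold higher (1.77 to 3.01) within ribosome-rich and 2.69-fold higher (1.35 to 5.26) within ribosome-poor cells.

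Several transcription factors of the myeloid lineage were higher. Of 16 measured C/EBP and identity factors, 4 were higher (all measured genes: 9.34%) and none was lower, with a median log2 ratio of 0.13. Cebpb, which drives inflammatory and acute-phase genes, had 307 CPM in non-recovered and 177 CPM in non-shocked microglia, 1.73-fold higher. Cebpa, a factor of myeloid fate, had 422 CPM in non-recovered and 268 CPM in non-shocked microglia, 1.57-fold higher (1.28 to 1.92). Both held within ribosome-rich cells, at 1.82 and 1.65-fold. Runx1 and Ikzf1, factors of blood cell development, were 1.74-fold and 1.57-fold higher over all cells but 1.31-fold (0.910 to 1.84) and 1.29-fold (0.946 to 1.72) higher within ribosome-rich cells. Both were also higher in ribosome-poor than ribosome-rich cells of the other chronic libraries (log2 ratios of 1.15 and 0.58). Spi1 (PU.1), Irf8, Mef2c and Sall1, which set microglial identity, lay between −0.37 and 0.18 on the log2 scale.

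Microglial identity genes were at like levels. All 25 homeostatic genes were measured, with none higher, 1 lower (4%, all measured genes: 4.32%) and a median log2 ratio of −0.13. Csf1r, the receptor that microglia need to survive, had 7963 CPM in non-recovered and 7924 CPM in non-shocked microglia, a ratio of 1.00 (0.961 to 1.05). Cx3cr1, the fractalkine receptor, had a ratio of 1.04 (0.982 to 1.10), Tmem119 one of 0.883 (0.817 to 0.954) and the purinergic receptor P2ry12 one of 0.857 (0.814 to 0.902). The ratio of P2ry12 was 1.02 within ribosome-rich and 0.559 (0.492 to 0.633) within ribosome-poor cells, and over the list the median log2 ratio was −0.02 within ribosome-rich and −0.33 within ribosome-poor cells. The lower member, the crystallin gene Crybb1, had 213 CPM in non-recovered and 349 CPM in non-shocked microglia, 1.64-fold (1.26 to 2.17).

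**Figure D4:**
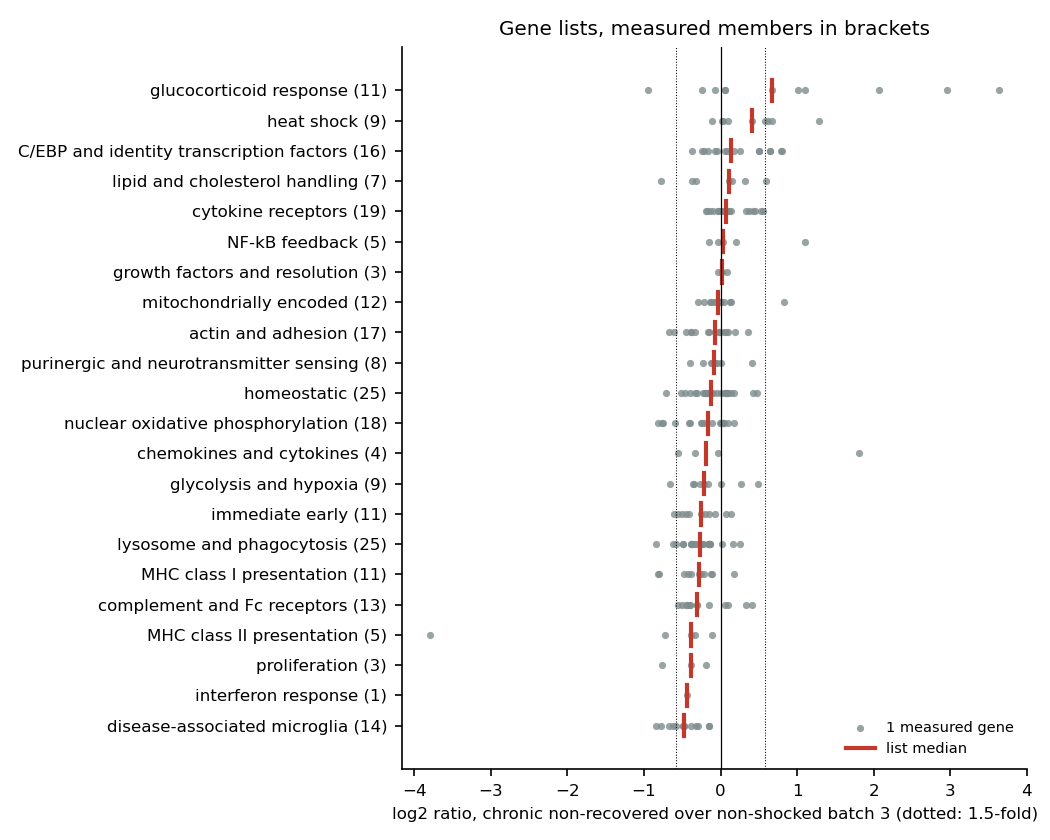
Each grey point is a measured gene and each red bar the median of its list, on the log2 ratio of chronic non-recovered over non-shocked batch 3 microglia, with dotted lines at 1.5-fold and the number of measured genes in brackets. The glucocorticoid response list has the highest median (0.68), ahead of heat shock (0.41), and the disease-associated microglia list the lowest (−0.48).

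Some genes of the disease-associated microglia list, among them lysosomal proteases, were lower. The disease-associated microglia list collects genes that microglia raise near amyloid and in ageing. Of its 24 genes, 23 were found and 14 were measured. None was higher and 4 were lower (28.6%, all measured genes: 4.32%). All 14 had a negative log2 ratio, and the median was −0.48, against 0.038 for all measured genes. Other lists leaned the same way, with 22 of 25 measured lysosomal genes and 10 of 11 measured MHC class I genes below 0. Ctsl, the lysosomal protease cathepsin L, had 920 CPM in non-recovered and 1648 CPM in non-shocked microglia, 1.79-fold lower (1.58 to 2.04). Apoe, the lipid carrier apolipoprotein E, had 307 CPM in non-recovered and 525 CPM in non-shocked microglia, 1.71-fold lower (1.37 to 2.16). The tetraspanin Cd9 had 802 and 1281 CPM and the protease Ctsz 1102 and 1695 CPM on the non-recovered and non-shocked sides, 1.60-fold and 1.54-fold lower. Within ribosome-rich cells Ctsl and Apoe stayed past 1.5-fold (ratios of 0.631 and 0.534), whereas Cd9 and Ctsz did not (0.750 and 0.744). Over the processing alternatives the log2 ratio of Apoe lay between −1.18 and −0.11. The list median was −0.32 within cluster 1. Within ribosome-poor cells 9 of the 14 were lower (11.4% of the genes measured there), with a median of −0.68, against −0.28 within ribosome-rich cells. Of 13 measured complement and Fc receptor genes none was past the limit, with a median of −0.31 and C1qa, C1qb and C1qc at −0.40, −0.45 and −0.40. Of 25 measured lysosomal genes 2 were lower (8%, all measured genes: 4.32%), with a median of −0.27. They were Ctsl and Ctsz, which are also on the disease-associated list. Within ribosome-poor cells, where 11.4% of the genes measured there were lower, 8 of the 13 complement and Fc receptor genes (median −0.64) and 16 of the 25 lysosomal genes (median −0.62) were lower. Within ribosome-rich cells none of the 13 (median −0.23) and 1 of the 25 (median −0.11) was lower.

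Some antigen presentation genes were lower, and for MHC class II a single control barcode carried most of the difference. Of 5 measured genes of class II presentation, 2 were lower (all measured genes: 4.32%) and none higher. The median log2 ratio was −0.38 over all cells, −0.16 within ribosome-rich and −0.67 within ribosome-poor cells. Cd74, the invariant chain that escorts class II molecules, had 4 UMIs (13.9 CPM) in non-recovered and 328 UMIs (193 CPM) in non-shocked microglia, 13.8-fold lower (5.36 to 51.1). A non-shocked barcode with 19731 UMIs, the deepest of its side, held 236 of the 328, and without the top cell of each side the ratio was 0.192 (0.0389 to 0.580). H2-Aa and H2-Eb1, class II chains, had 0 UMIs in non-recovered and 89 and 94 UMIs in non-shocked microglia, of which that barcode held 84 and 85. Summed over Cd74, H2-Aa, H2-Ab1 and H2-Eb1, non-recovered microglia had 6 UMIs and non-shocked microglia 597, or 127 without that barcode, which left the sum 3.62-fold lower (1.62 to 10.0). Markers of border macrophages, brain macrophages that can carry class II, summed to 6.97 CPM (2 UMIs, both in 1 cell) in non-recovered and 14.7 CPM (25 UMIs, 12 of them in 1 cell) in non-shocked microglia, with Cd163 and Lyve1 at 0 in both and Mrc1 and Pf4 at 0 in non-recovered microglia. Their part in the class II result was not tested. That barcode held 4.20% of its UMIs in microglial markers, near the medians of 4.47% in non-recovered and 5.07% in non-shocked cells. H2-DMb1, a chain of the molecule that loads class II peptides, was spread over cells, with 112 CPM in non-recovered and 185 CPM in non-shocked microglia, 1.66-fold lower (1.15 to 2.46).

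Of 11 measured genes of class I presentation, 2 were lower (all measured genes: 4.32%) and none higher, with a median log2 ratio of −0.28. H2-D1, a classical class I heavy chain, had 299.8 CPM in non-recovered and 529 CPM in non-shocked microglia, 1.76-fold lower (1.41 to 2.23). Its ratio was 0.516 within ribosome-rich cells and 0.676, just within 1.5-fold, within ribosome-poor cells. Psme2, a subunit of the proteasome activator, had 73.2 CPM in non-recovered and 128 CPM in non-shocked microglia, 1.75-fold lower (1.12 to 2.89). B2m, the class I light chain, and H2-K1 had log2 ratios of −0.48 and −0.42, within 1.5-fold. The class I heavy chain genes are alike in sequence, and how reads that match several of them were counted is not stated in the labels. Of the 24 interferon-stimulated genes only Bst2 was measured, at 101 CPM in non-recovered and 137 CPM in non-shocked microglia.

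Some ribosomal protein and nuclear respiratory chain genes were lower. Ribosome-rich cells were also a smaller share of non-recovered microglia, and the part of that cell makeup was not tested. Of 77 measured cytosolic ribosomal protein genes 7 were lower and none higher, where 4.32% of all measured genes were lower. Their median log2 ratio was −0.39 over all cells, −0.19 within ribosome-rich and −0.28 within ribosome-poor cells. Of 18 nuclear respiratory chain genes 4 were lower (22.2%, all measured genes: 4.32%), Atp5e, Cox4i1, Cox6c and Cox7c, by 1.51 to 1.76-fold. Within ribosome-rich cells Atp5e alone stayed past 1.5-fold (ratio of 0.661). The median log2 ratio of the 18 was −0.17 over all cells, 0.051 within ribosome-rich, −0.30 within ribosome-poor and 0.018 within cluster 1 cells. The 12 measured mitochondrially encoded genes had a median of −0.03, with mt-Atp8, which overlaps mt-Atp6, as the 1 higher gene (1.78-fold).

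The other lists held few genes past the limit, where 9.34% of all measured genes were higher and 4.32% lower. Of 7 measured genes of lipid and cholesterol handling, the cholesterol exporter Abca1 was higher (418 CPM in non-recovered and 276 CPM in non-shocked microglia, 1.17-fold within ribosome-rich cells) and Apoe was lower. Of 17 actin and adhesion genes 2 were lower, with Actg1, cytoplasmic gamma-actin, at 774 CPM in non-recovered and 1178 CPM in non-shocked microglia and a median log2 ratio of −0.08. Of 9 glycolysis and hypoxia genes Ldha was lower (1.59-fold, median −0.22), and of 3 proliferation genes the histone variant gene H2afz (1.71-fold, median −0.39). None of 19 cytokine receptor genes (median 0.07), 8 purinergic and neurotransmitter receptor genes (−0.09) or 3 growth factor genes (0.02) was past the limit.

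Outside the lists, the highest ratio belonged to Qpct, which encodes glutaminyl-peptide cyclotransferase, an enzyme that closes the N-terminus of peptides. It had 202 CPM (58 UMIs in 36 cells) in non-recovered and 1.77 CPM (3 UMIs in 3 cells) in non-shocked microglia, a ratio of 115 (37.3 to 571). Its level in the other libraries followed neither shock nor behaviour. It was 2.85 CPM in chronic non-helpless, 56.2 in chronic recovered, 5.16 in acute helpless, 445 in acute non-helpless and 304 in batch 2 non-shocked microglia, so that the batches of the non-shocked library differed as widely as the compared sides. Dlgap1, which encodes a postsynaptic scaffold protein, was chosen after its values were seen and lies on the same chromosome (GRCm38 chr17:69969073-70821413, plus strand, with Qpct at chr17:79051906-79090378, plus strand). It had 41 UMIs in 28 non-recovered cells and 0 UMIs in non-shocked batch 3 microglia, at least 81.0-fold higher against a floor of 3 UMIs, with 0 CPM in chronic non-helpless and acute helpless, 23.7 in chronic recovered, 201 in acute non-helpless and 292 in batch 2 non-shocked microglia. Whether animals differed in genotype at these genes was not tested.

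Of the other genes with the highest ratios, Ccnd3 and Tagap held within each cell state. Ccnd3, which encodes cyclin D3 of the G1 phase, had 227 CPM in non-recovered and 48.9 CPM in non-shocked microglia, 4.64-fold higher (3.30 to 6.50), with ratios of 3.87 within ribosome-rich and 4.55 within ribosome-poor cells. Tagap, a GTPase-activating protein, had 303 CPM in non-recovered and 105 CPM in non-shocked microglia, 2.88-fold higher, with ratios of 2.66 and 3.43. Dst, a long gene for the cytoskeletal linker dystonin, had 547 CPM in non-recovered and 227 CPM in non-shocked microglia, 2.41-fold higher (1.99 to 2.91), but 1.62-fold (1.19 to 2.18) within ribosome-rich cells. Asxl2, a chromatin regulator, was 2.55-fold higher over all and 1.91-fold within ribosome-rich cells. Elmsan1 and Washc4, which encodes a subunit of the WASH complex of endosomes, were 2.36-fold and 2.31-fold higher, and 2.23-fold and 2.43-fold within ribosome-rich cells.

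The lowest ratios after Cd74 belonged to genes of varied function. Hist1h2ac, a replication-type histone gene, had 59.3 CPM in non-recovered and 187 CPM in non-shocked microglia, 3.16-fold lower (1.94 to 5.49). Of 4 measured histone genes of that naming 2 were lower (all measured genes: 4.32%), with none higher and a median log2 ratio of −0.18. Cirbp, the cold-inducible RNA-binding protein, had 97.6 CPM in non-recovered and 202 CPM in non-shocked microglia, 2.07-fold lower (1.41 to 3.16). Anxa3, a phospholipid-binding annexin, had 282 CPM (224 to 351) in non-recovered and 577 CPM (541 to 614) in non-shocked microglia, 2.04-fold lower (1.63 to 2.59), with like ratios of 0.477 and 0.494 within ribosome-rich and ribosome-poor cells. Gpr84, a receptor of medium-chain fatty acids that inflammation induces in macrophages, had 83.7 CPM in non-recovered and 166 CPM in non-shocked microglia, 1.98-fold lower (1.31 to 3.15). Ldhb, a lactate dehydrogenase subunit, was 1.92-fold lower (1.51 to 2.46), and Shisa5, the sugar transporter gene Slc50a1, the peroxiredoxin gene Prdx5 and the tetraspanin gene Tspan4 were 1.94 to 2.06-fold lower.

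The place of both sides in the series differed between genes. Ddit4 had 293 CPM in non-recovered, 136 in chronic non-helpless, 156 in chronic recovered, 1168 in acute helpless, 323 in acute non-helpless, 68.8 in batch 2 non-shocked and 23.5 in batch 3 non-shocked microglia, the lowest of all. Tsc22d3 had its 2 lowest levels in the non-shocked parts, 86.0 CPM in batch 2 and 44.7 CPM in batch 3, and lay between 169 and 426 CPM in the shocked libraries. Fkbp5 was above 100 CPM in non-recovered (188) and acute helpless microglia (270), and at 27.5 CPM in chronic non-helpless, 19.1 in chronic recovered, 32.6 in acute non-helpless, 74.5 in batch 2 non-shocked and 44.7 in batch 3 non-shocked microglia. The ratio of Fkbp5 therefore parts non-recovered microglia from the other chronic libraries as well, while Ddit4 and Tsc22d3 were lower in batch 3 non-shocked microglia than in any other library. Sgk1 and Per1 were highest in non-recovered microglia, at 1011 and 87.2 CPM, with intervals that for Per1 overlap batch 2 non-shocked microglia (45.9 CPM). Hspa8, at 1325 CPM in non-recovered and 862 CPM in batch 3 non-shocked microglia, lay between 1399.6 and 1800.2 CPM in the other shocked libraries. Egr1 was highest in the compared libraries, at 373 CPM in non-recovered and 529 CPM in batch 3 non-shocked microglia, and between 34.4 and 116 CPM elsewhere. The batch numbers differ between these libraries, and whether reads were assigned to the same gene symbols in every batch was not tested. These levels are therefore set side by side without a comparison across batches.

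**Figure D5:**
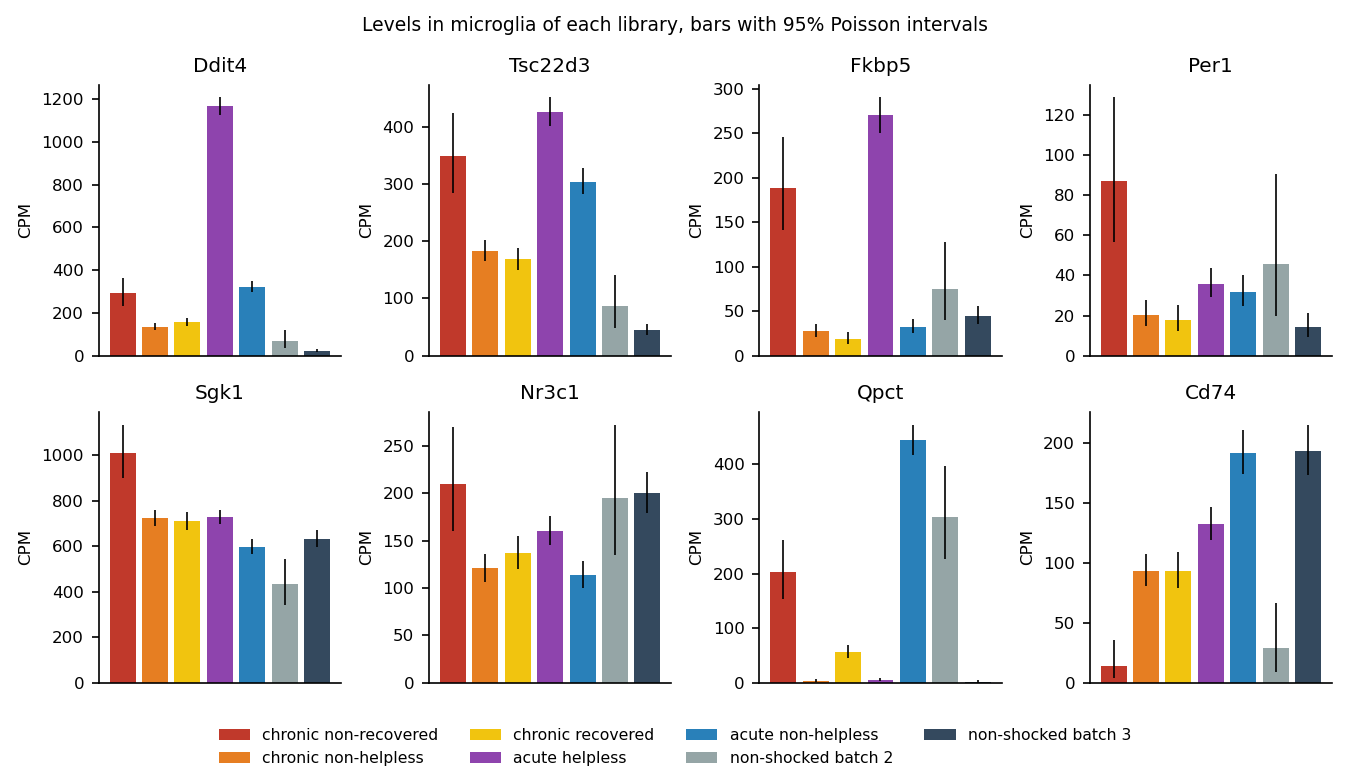
CPM of 8 genes in the microglia of each library, bars with 95% Poisson intervals, in the order chronic non-recovered, chronic non-helpless, chronic recovered, acute helpless, acute non-helpless, non-shocked batch 2 and non-shocked batch 3. Fkbp5 stands out in chronic non-recovered (188 CPM) and acute helpless microglia (270 CPM), Nr3c1 is at 209 CPM in non-recovered and 200.1 CPM in batch 3 non-shocked microglia, and Qpct is high in non-recovered, acute non-helpless and batch 2 non-shocked microglia.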

How the data were processed

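The 6 deposited tables of raw UMI counts per gene and cell were used, with the authors' deposited cell metadata for batch, cluster, cell type, library and counts of UMIs and detected genes per cell. The submitters' processing notes name genome build mm10, Cell Ranger 2.2.0 and Seurat 2.3.4. The rules for cell filtering, clustering and doublets, and the meaning of a batch number, are not stated in these sources, and no doublet caller was run. Summed UMI totals equalled the deposited totals in all 3005 cells. UMIs were summed over the microglia of each side and scaled to CPM with exact Poisson 95% intervals, ratios have conditional exact 95% intervals, and shares have exact Clopper-Pearson intervals (Python 3.11.15, SciPy 1.17.1). UMIs of a cell are not independent draws, so these intervals cover counting error only. A count under 3 on the lower side was set to 3. With 1 library a side no test was made. The scripts were checked on simulated counts. Named genes were the 12 highest and 12 lowest ratios among genes with at least 100 mean CPM and 30 UMIs on the higher side (mitochondrially encoded, ribosomal protein, haemoglobin, immunoglobulin, T cell receptor, unnamed, Xist and Y-linked genes left out), list members past 1.5-fold, and a fixed set. The members and the 22 lists were chosen with earlier results of these data known. Gene positions come from GENCODE M21 and promoter windows from RefSeq. The normalized and merged tables were not used.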

Additional observations from a re-analysis of the deposited data

How the results depend on the processing

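Main counts past 1.5-fold were 173 higher and 80 lower genes. They were 550 and 197 at a level limit of 50 CPM, 53 and 26 at 200 CPM, 281 and 174 with each cell weighted equally, 373 and 200 with cells thinned to 1000 UMIs, and 398 and 228 within ribosome-poor cells. They were 319 and 202 with non-shocked microglia reweighted to the non-recovered cluster shares, which rests on 9 non-shocked cells of cluster 6. Those cells had a median of 1185 UMIs, and 1 of them is the barcode with 19731 UMIs that held most class II UMIs. Without the top barcode of each gene, an alternative chosen after seeing the data like that of cluster 1, 125 genes were lower. The other 17 counts lay within 1.5 times of the main ones. The glucocorticoid median of 0.68 was 0.064 at 200 CPM and, with members measured anew in those cells, 0.39 within ribosome-rich, 0.94 within ribosome-poor and 0.36 within cluster 1 cells. The homeostatic median was −0.33 within ribosome-poor cells, and the MHC class II median −3.62 after reweighting. The class II-rich barcode is among the cluster 6 cells behind that reweighted value. With both batches of non-shocked microglia, their share was 44.2% in cluster 1, 25.2% in cluster 3 and 23.7% in cluster 6, and their ribosome-poor share 41.3%. In cells of at least 1000 UMIs the cluster 4 share was 4.46%. Of 873 log2 ratios of 68 named genes, 755 stayed inside the main interval, 112 moved outside and 6 changed sign: Prdx5 (0.021) and H2afz (0.48) with the neutrophil barcode kept, Atp5e (0.057), Crybb1 (0.22) and Ccl3 (−0.46) within ribosome-poor cells, and H2-Ab1 (0.27) within cluster 1. No paired analysis was possible because each group is 1 library.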
